A study of Mus musculus with 6 samples.

Results

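Prostaglandins and leukotrienes are short-lived lipid signals made from arachidonic acid. Cyclooxygenases turn arachidonic acid into prostaglandin H2, terminal synthases turn that into the single prostaglandins, and breakdown begins in the cell after uptake by a transporter, while lipoxygenases open the separate branch that leads to leukotrienes, lipoxins and hydroxy fatty acids. In the male tract prostaglandins are known as constituents of seminal fluid and as regulators of smooth muscle and of inflammation. The 10 genes described here were chosen by symbol for their place in this pathway, out of 34745 genes in the deposited table. They are the cyclooxygenases Ptgs1 and Ptgs2, the synthases Ptges, Ptgis, Ptgds and Hpgds, the degrading enzyme Hpgd, the receptor Ptger4, and the lipoxygenases Alox5 and Alox15.

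RNA was sequenced from prostate tissue of 6 male C57BL/6 mice that were 6 to 8 weeks old when the experiment began. In the T + E2 group, 3 mice carried a subcutaneous slow-release pellet of testosterone and estradiol for 12 weeks, renewed each month. In the CON group, 3 mice had the skin incision without a pellet, so the presence of an implant was not controlled for. The mice sequenced were not those examined histologically, and each library is 1 mouse. The question is which steps of prostaglandin and leukotriene metabolism differ between the hormone-induced and the control prostate.

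Reads counted on genes totalled 14816146 to 16555549 per mouse, and 3 counts, taken as the detection limit, were worth 0.183 to 0.207 CPM, the count scaled to library size. Seminal vesicle transcripts stood apart in replicate 2 of each group, with a summed level of 10322 CPM in CON and 643 CPM in T + E2 over 7 markers, against 0.629 to 4.11 CPM in the other 4 mice. CON replicate 2 was led by Svs4 and Svs5 (4587 and 5042 CPM) and T + E2 replicate 2 by Svs2 (484 CPM). In T + E2 replicate 2, Svs1, Svs3a and Svs6 were at most 0.244 CPM, so the profiles of both mice differed. The numbers of genes called among the 10, in the wider list and over all genes were therefore repeated without these 2 mice. The prostate marker Hoxb13 did not pass the test between the groups. Of the secretory genes, Pbsn and Tgm4 fell, by 3.29 and 2.91 on the log2 scale, and Msmb rose by 1.10. Msmb had the highest mean FPKM of the luminal markers in T + E2, but was below Pbsn and Tgm4 in CON.

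The stretch of 250 bases before the RefSeq start (build GRCm38.p6) is shown for the 3 members whose expression changed, and for Ptgs2 as the paralogue of Ptgs1, because the pellet delivers ligands of nuclear receptors that bind DNA. Capitals mark 4 motifs on either strand: AGAACA, the repeat unit of the androgen response element, which other steroid receptors also read; GGTCA, the repeat unit of the oestrogen response element; TATAAA, the TATA box; and GGGCGG, the GC box. No 2 of the marked motifs overlap. Ptgs1 lies at chr2:36230176-36230425 on the plus strand, Ptgs2 at chr1:150099781-150100030 on the plus strand, Ptges at chr2:30903298-30903547 on the minus strand and Hpgd at chr8:56294302-56294551 on the plus strand.
Ptgs1: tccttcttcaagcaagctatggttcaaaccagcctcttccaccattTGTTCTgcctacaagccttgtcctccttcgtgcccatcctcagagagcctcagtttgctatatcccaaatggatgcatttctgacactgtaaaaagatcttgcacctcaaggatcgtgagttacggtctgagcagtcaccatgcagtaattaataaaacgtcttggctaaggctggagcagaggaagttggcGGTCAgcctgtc
Ptgs2: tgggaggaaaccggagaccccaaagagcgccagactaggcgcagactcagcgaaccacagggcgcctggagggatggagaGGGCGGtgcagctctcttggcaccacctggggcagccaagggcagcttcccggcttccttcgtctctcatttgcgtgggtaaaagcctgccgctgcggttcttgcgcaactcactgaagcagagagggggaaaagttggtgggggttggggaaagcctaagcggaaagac
Ptges: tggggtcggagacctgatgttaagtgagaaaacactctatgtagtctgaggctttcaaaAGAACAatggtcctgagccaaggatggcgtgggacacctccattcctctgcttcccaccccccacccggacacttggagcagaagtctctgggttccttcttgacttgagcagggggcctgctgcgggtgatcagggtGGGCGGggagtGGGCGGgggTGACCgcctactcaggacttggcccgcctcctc
Hpgd: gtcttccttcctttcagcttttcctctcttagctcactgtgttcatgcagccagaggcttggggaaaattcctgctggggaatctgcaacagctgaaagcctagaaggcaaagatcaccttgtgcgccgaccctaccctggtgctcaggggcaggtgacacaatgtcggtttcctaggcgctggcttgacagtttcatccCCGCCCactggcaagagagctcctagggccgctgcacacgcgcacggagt

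AGAACA began 204 bases before the start in Ptgs1 and 191 bases before it in Ptges, and GGTCA 12 and 33 bases before it. These stretches of Ptgs2 and Hpgd hold neither. Ptges has 2 GC boxes and Hpgd and Ptgs2 have 1 each, and none of the 4 has TATAAA. Over 32851 RefSeq promoters of the same length, 16.1% hold AGAACA, 35.2% GGTCA, 12.4% TATAAA and 32.7% GGGCGG, so such matches are common. Ptgs1 and Ptges both hold AGAACA and GGTCA and changed in opposite directions, as described below. Binding of a receptor to these matches was not tested. RefSeq promoters were matched for 8 of the 10 genes, all except Ptgis and Alox15. Gene coordinates below are those of the deposited table, which names no build. The RefSeq start of Ptges lies inside the span that the deposited table gives to the gene.

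Levels of different genes were compared as FPKM, in which counts are scaled to gene length and to library depth. For these genes the length implied by the deposited values was 1719 to 7694 bases. Hpgd, which encodes the enzyme that starts the breakdown of prostaglandins, had the highest FPKM of the members in every mouse, with 82.3 to 87.7 FPKM in the CON group and 173 to 207 FPKM in the T + E2 group. Its mean over all mice was above that of 98.6% of the tested genes. Ptges, the inducible membrane synthase of prostaglandin E2, came next at 29.3 to 34.9 FPKM in CON and 70.7 to 76.8 FPKM in T + E2, above 95.8% of tested genes. This order depends on the implied lengths, 1719 bases for Hpgd and 5256 for Ptges. In CPM, which is not scaled to length, Ptges was above Hpgd in every mouse. Together both made up 83.9% ± 0.962 of the summed FPKM of the 10 genes in CON and 94.9% ± 0.511 in T + E2 (SD, n = 3 in each).

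In the CON group Ptgs1 followed at 11 to 13.9 FPKM and Ptgis at 4.95 to 7.49 FPKM. In the T + E2 group this order was turned, with Ptgis at 5.88 to 6.83 FPKM and Ptgs1 at 3.94 to 4.26 FPKM. In neither group did the ranges of these neighbours overlap. The turn depends on the scaling to length, with implied lengths of 5933 bases for Ptgs1 and 3134 for Ptgis. In CPM, Ptgs1 stayed above Ptgis in the T + E2 mice (23.1 to 25.5 against 19.2 to 21.2 CPM). The other 6 genes were low, between 0.132 and 1.36 FPKM. Alox15 was the highest of these in the CON group, with a range that met no other. Below it came Ptger4, then Ptgs2, Alox5, Ptgds and Hpgds, and from Ptgs2 down each gene overlapped the next. In the T + E2 group the order of means was Alox15, Ptgs2, Ptgds, Ptger4, Alox5 and Hpgds, and each overlapped the next except that Hpgds lay just below Alox5.

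**Figure D1:**
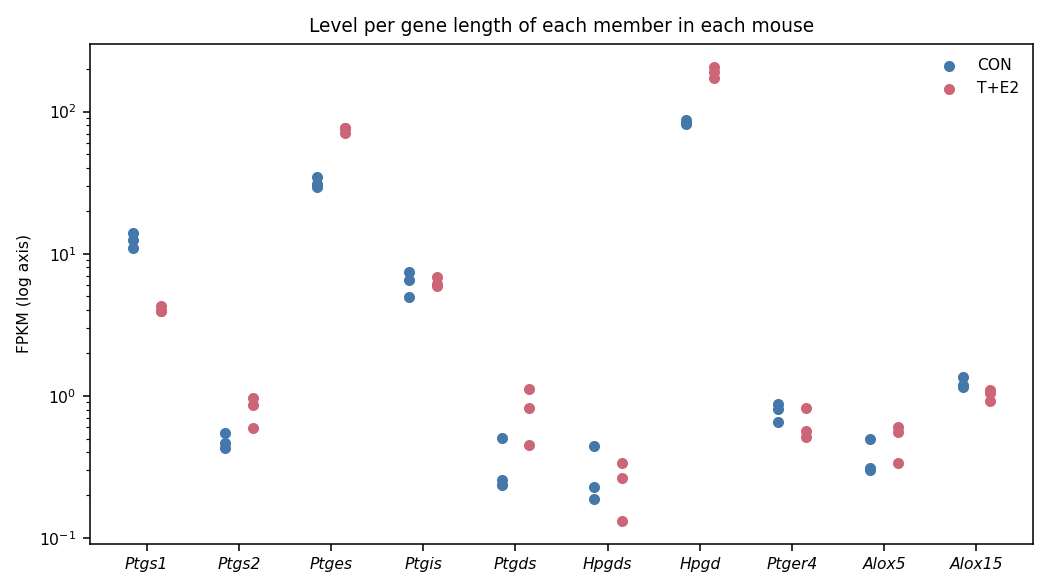
FPKM of the 10 genes on a log axis, 1 point per mouse, CON in blue and T + E2 in red. Hpgd and Ptges lie above all others in both groups, and Ptgs1 lies above Ptgis in CON and below it in T + E2.

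All 10 genes had enough counts to be tested, and 3 of them passed an adjusted p of 0.05 in edgeR's quasi-likelihood test over 15580 genes, where 19.6% of all tested genes passed. Ptges and Hpgd rose, as did 10.4% of tested genes, and Ptgs1 fell, as did 9.25%. The same 3 were DEGs, with an absolute log2 fold change over 1, where 7.64% of tested genes were. The values of all 3 T + E2 mice lay apart from those of all 3 CON mice for 5 of the 10 genes and for 40.7% of tested genes. The median log2 fold change was 0.24 over the 10 genes and -0.002 over all tested genes. In bulk tissue, fewer cells of a type and less RNA per cell cannot be told apart.

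Ptgs1 encodes the constitutive cyclooxygenase (chromosome 2, 36230426 to 36252272, plus strand). It had 72.8, 63.9 and 82.9 CPM in CON mice and 24.6, 25.5 and 23.1 CPM in T + E2 mice. The groups were far apart, and the T + E2 mice lay close together. Gm43621, which overlaps it on the opposite strand, had 0 counts in every mouse. The group means were 73.2 ± 9.5 and 24.4 ± 1.2 CPM (SD, n = 3 in each), 3-fold lower in the T + E2 group, or -1.59 on the log2 scale (SE 0.12, adjusted p = 9.8e-05 by edgeR).

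Ptgs2 encodes the inducible cyclooxygenase (chromosome 1, 150100031 to 150108227, plus strand). It was sparsely counted, with 30, 38 and 35 reads in CON mice and 42, 67 and 67 reads in T + E2 mice, or 1.99, 2.5 and 2.2 against 2.91, 4.08 and 4.47 CPM. Every T + E2 value lay above every CON value, but the test was missed (log2 fold change 0.78, 95% interval 0.21 to 1.34, adjusted p = 0.0602 by edgeR). Without T + E2 replicate 1, the lowest of that group, it was 0.94 with an adjusted p of 0.0453 by edgeR, and over all alternatives the adjusted p ranged from 0.0453 to 0.214.

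The summed cyclooxygenase level was 12.9 ± 1.37 FPKM in the CON group and 4.86 ± 0.283 FPKM in the T + E2 group (SD, n = 3 in each). Ptgs2 supplied 3.33, 4.71 and 3.25% of it in CON mice and 13, 16.8 and 19.7% in T + E2 mice. Ptgs1 remained the larger part in every mouse. These shares follow from both genes and were not tested separately.

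Ptges (chromosome 2, 30889471 to 30929863, minus strand) had 180, 150 and 162 CPM in CON mice and 421, 375 and 399 CPM in T + E2 mice. The lowest T + E2 mouse was above the highest CON mouse by more than the range of either group. The means of 164.2 ± 15 and 398.2 ± 23.4 CPM (SD, n = 3 in each) differed 2.43-fold (log2 fold change 1.28, SE 0.10, adjusted p = 0.000169 by edgeR). The ratio of Ptges to Ptgs1 in FPKM was 2.79, 2.65 and 2.21 in CON mice and 19.3, 16.6 and 19.5 in T + E2 mice.

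Ptgis, the synthase of prostacyclin (chromosome 2, 167191805 to 167240604, minus strand), had 15.2, 19.8 and 23.6 CPM in CON mice and 19.3, 19.2 and 21.2 CPM in T + E2 mice. The T + E2 values lay inside the range of the CON values. Of the genes that overlap it, Gm14291 had at most 1 count and 1110018N20Rik 5 to 9 counts. Its log2 fold change of 0.02 had a 95% interval of -0.35 to 0.40 (adjusted p = 0.936 by edgeR), so a change of the size seen in Ptgs1 or Ptges lay outside the interval. The sign turned under total-count scaling (-0.01) and without CON replicate 1 or T + E2 replicate 3 (-0.13 and -0.02).

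Prostaglandin D2 has 2 unrelated synthases, Ptgds of the lipocalin family and Hpgds of the glutathione transferase family. Ptgds (chromosome 2, 25466709 to 25470046, minus strand) had 10, 20 and 10 reads in CON mice and 18, 49 and 32 reads in T + E2 mice. The groups overlapped, since T + E2 replicate 1 had 1.25 CPM and CON replicate 2 had 1.31 CPM. Its log2 fold change of 1.29 was as large as that of Ptges but much less certain (95% interval 0.30 to 2.28, adjusted p = 0.0716 by edgeR), and it passed without T + E2 replicate 1 (1.56, adjusted p = 0.0461 by edgeR, range over the alternatives 0.0461 to 0.225).

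Hpgds (chromosome 6, 65117293 to 65144908, minus strand) had 3.38, 1.71 and 1.45 CPM in CON mice and 2.14, 2.62 and 1 CPM in T + E2 mice. The groups overlapped widely, and the log2 fold change of -0.17 (95% interval -1.20 to 0.85, adjusted p = 0.815 by edgeR) changed sign when CON replicate 1 or T + E2 replicate 3 was left out, to 0.29 and 0.13.

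Hpgd encodes 15-hydroxyprostaglandin dehydrogenase (chromosome 8, 56294552 to 56321046, plus strand). It had 140, 138 and 152 CPM in CON mice and 343, 359 and 293 CPM in T + E2 mice. The groups did not overlap. The means of 143.3 ± 7.53 and 331.7 ± 34.2 CPM (SD, n = 3 in each) differed 2.31-fold (log2 fold change 1.21, SE 0.11, adjusted p = 0.000242 by edgeR). The ratio of Hpgd to Ptges in FPKM was 2.38, 2.81 and 2.86 in CON mice and 2.49, 2.93 and 2.25 in T + E2 mice, and here the groups overlapped.

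**Figure D2:**
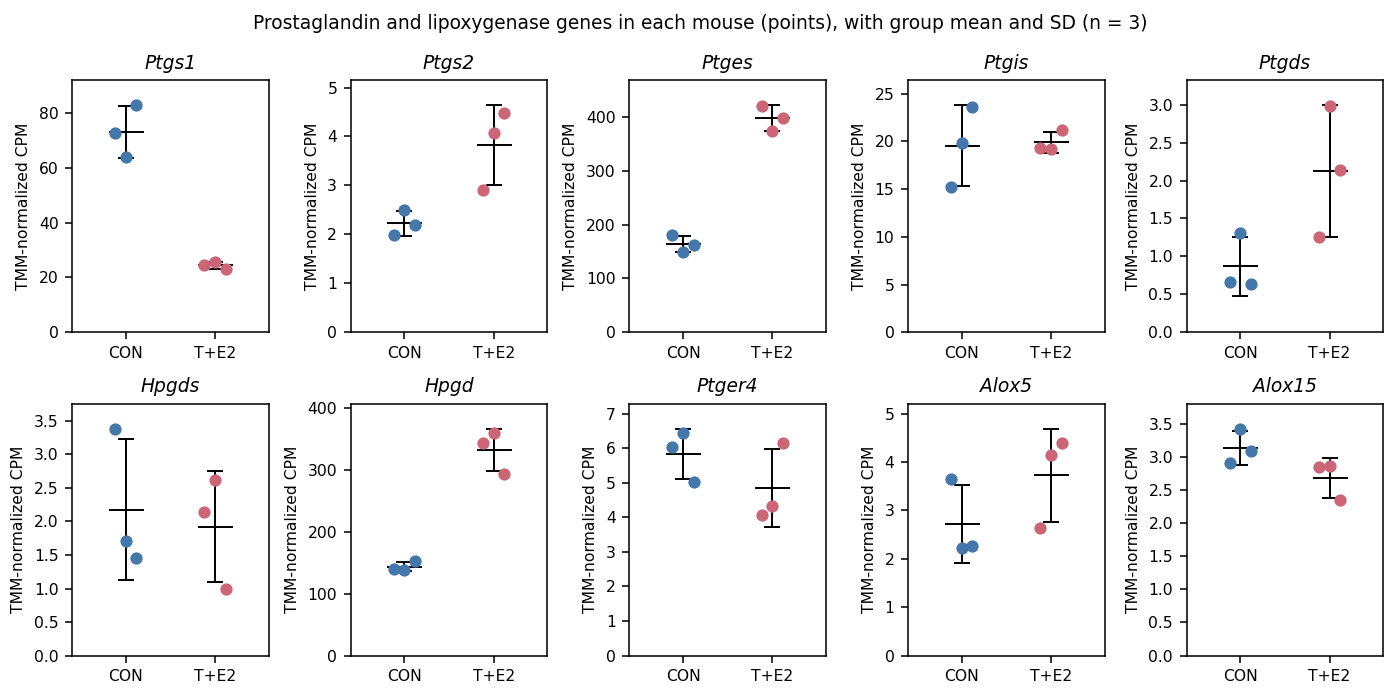
TMM-normalized CPM of each gene in each mouse (points) with the group mean and SD (n = 3 in each group), CON in blue and T + E2 in red, each panel with its own axis from 0. Ptgs1 is lower and Ptges and Hpgd are higher in all 3 T + E2 mice, while Ptgis, Ptgds, Hpgds, Ptger4 and Alox5 overlap between the groups.

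**Figure D3:**
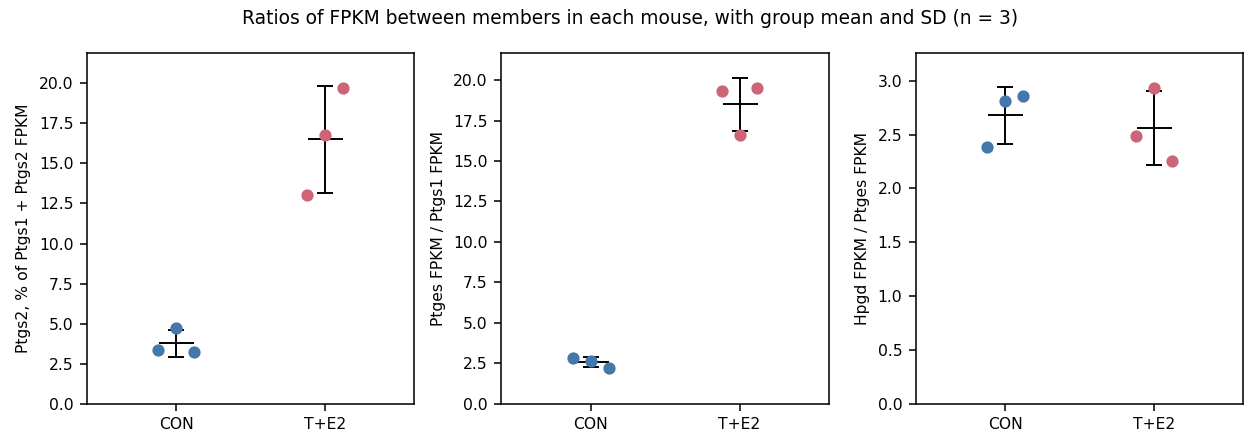
Ratios of FPKM between members in each mouse, with the mean and SD of each group (n = 3): the percent of cyclooxygenase FPKM that is Ptgs2, the ratio of Ptges to Ptgs1 and the ratio of Hpgd to Ptges. The first averages 3.76% in CON and 16.5% in T + E2 and the second 2.55 and 18.5, and the third overlaps between the groups.

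Ptger4 encodes the EP4 receptor of prostaglandin E2 (chromosome 15, 5206661 to 5244187, minus strand). It had 6.03, 6.44 and 5.03 CPM in CON mice and 4.08, 4.32 and 6.14 CPM in T + E2 mice. The groups overlapped through T + E2 replicate 3 (log2 fold change -0.27, 95% interval -0.77 to 0.24, adjusted p = 0.429 by edgeR). It shares 11676 bases with Ttc33 on the opposite strand, which had 216 to 537 counts, and the use of strand in counting is not given in the sources used here. Its transcript is identical to Gm15937 over 874 bases, so reads could be shared there too.

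The lipoxygenases Alox5, which starts leukotriene synthesis, and Alox15, which makes hydroxy fatty acids and lipoxins, were both low and did not pass. Alox5 (chromosome 6, 116410077 to 116461178, minus strand) had 3.64, 2.23 and 2.26 CPM in CON mice and 2.63, 4.14 and 4.4 CPM in T + E2 mice (log2 fold change 0.46, 95% interval -0.23 to 1.15, adjusted p = 0.312 by edgeR). Alox15 (chromosome 11, 70344152 to 70352031, minus strand) had 2.91, 3.42 and 3.08 CPM in CON mice and 2.84, 2.86 and 2.34 CPM in T + E2 mice. Its groups did not overlap, but the gap between them was small and the log2 fold change was -0.23 (95% interval -0.71 to 0.26, adjusted p = 0.483 by edgeR).

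The calls of Ptgs1, Ptges and Hpgd held under all 14 alternatives, with log2 fold changes of -1.71 to -1.41, 1.22 to 1.35 and 1.12 to 1.29. These 3 of the 10 genes were also the ones called without replicate 2 of both groups, the mice with seminal vesicle transcripts.

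**Figure D4:**
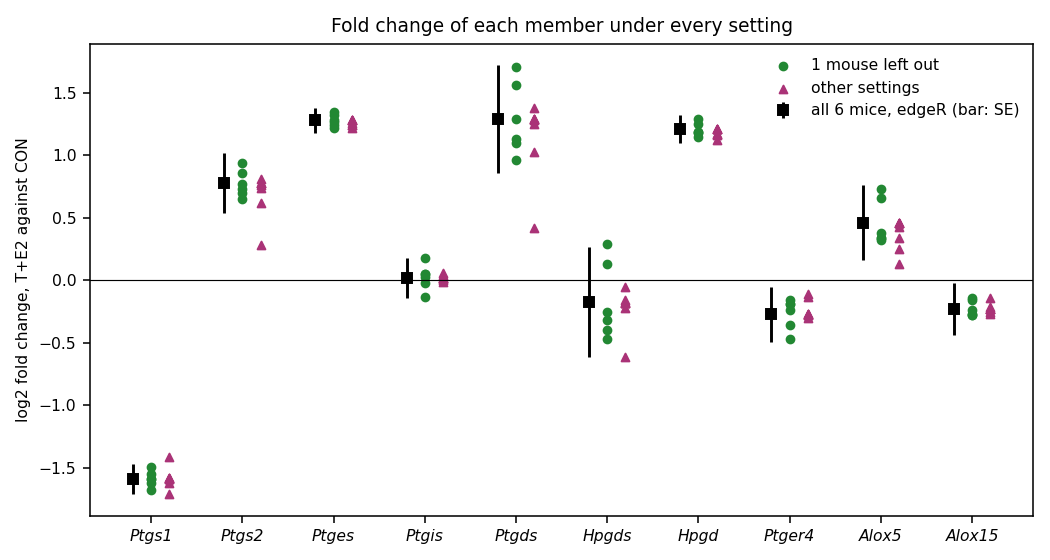
Log2 fold change of each gene, T + E2 against CON, with all 6 mice (black squares, bars show the standard error), with 1 mouse left out (green circles) and under the other settings (purple triangles). Ptgs1, Ptges and Hpgd stay on their side of 0 at nearly the same size, and Ptgis and Hpgds cross 0.

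Other genes of the pathway were followed in a list arranged by role, with 64 genes found in the table and 45 tested. Of these, 13 were higher and 4 lower in the T + E2 group at an adjusted p of 0.05, and 28 did not pass, with a median log2 fold change of 0.01. The share of 37.8% that passed stands beside 19.6% of all tested genes. Without replicate 2 of both groups 6 passed, and with a single mouse left out 8 to 14, so many of these calls rested on all 6 mice. The 6 that passed without replicate 2 of both groups were Ptger3, Slco2a1, Akr1b3, Mgll, Pla2g4a and Dpep1, and the other 11 called genes, all named below, did not pass there. The counts by role below stand beside 10.4% of all tested genes higher and 9.25% lower. The lowest number, 8, came without T + E2 replicate 2, and 9 passed without CON replicate 2 and also without CON replicate 3.

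The receptors and the transporter held the largest changes. Ptger3, which encodes the EP3 receptor of prostaglandin E2, had 41.6, 30.6 and 35.5 CPM in CON mice and 6.3, 5.24 and 4.6 CPM in T + E2 mice. It fell 6.67-fold, or -2.74 on the log2 scale (SE 0.17, adjusted p = 4.4e-05 by edgeR). Slco2a1, the carrier that takes prostaglandins into cells for breakdown, had 27.4, 33.8 and 29.1 CPM in CON and 133, 112 and 136 CPM in T + E2. It rose 4.21-fold, or 2.08 on the log2 scale (SE 0.12, adjusted p = 3.8e-05 by edgeR). Both calls held under all 14 alternatives. The uptake carrier Slco2a1 and the degrading enzyme Hpgd were thus both higher in every T + E2 mouse than in any CON mouse.

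Ptgdr, a receptor of prostaglandin D2, had 6, 9 and 10 reads in CON mice and 15, 201 and 40 reads in T + E2 mice. T + E2 replicate 2 was far above the other mice. The log2 fold change was 3.29 (adjusted p = 0.0362 by edgeR). Without that mouse it was 1.77 (adjusted p = 0.068 by edgeR), and without CON replicate 1, 2 or 3 it was 3.11, 3.35 and 3.41 (adjusted p = 0.0966, 0.086 and 0.0999 by edgeR). It also missed the threshold in both limma fits of FPKM (adjusted p = 0.174 and 0.0998). Its transcript is identical to Gm16976 over 705 bases, so reads could be shared. In the receptor list Ptgfrn, a regulator of the prostaglandin F receptor, had the highest FPKM and did not pass (log2 fold change -0.31, adjusted p = 0.073 by edgeR). Ptger3 came next, at a mean of 2.7 FPKM over all mice, 4.72 FPKM in CON and 0.687 FPKM in T + E2. In all, 1 of 7 tested genes of this list, Ptgfrn included, was higher and 1 lower. Ptgr1, a reductase of later breakdown, had the highest FPKM of the transport and breakdown genes and did not pass (-0.18, adjusted p = 0.235 by edgeR), and 1 of 5 in that group passed.

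Among the other synthases and reductases, 4 of 10 tested were higher and 2 lower. Akr1b3, the mouse aldose reductase, which also reduces prostaglandin H2 to prostaglandin F2α, had 263, 250 and 297 CPM in CON and 92.4, 84.8 and 73.9 CPM in T + E2. It fell 3.23-fold, or -1.69 on the log2 scale (SE 0.11, adjusted p = 6.9e-05 by edgeR), close to that of Ptgs1 and under all 14 alternatives. Its transcript is over 99% identical to that of several pseudogenes, so its reads could be shared with these. Cbr1, a carbonyl reductase of prostaglandin E2, had the highest FPKM of these genes and did not pass (-0.17, adjusted p = 0.226 by edgeR).

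Smaller rises were those of Tbxas1, the thromboxane synthase (0.99), Ptges3l, a relative of the chaperone Ptges3 (0.79), the aldose reductase relative Akr1b8 (0.59) and the carbonyl reductase Cbr3 (0.56), with adjusted p of 0.0291, 0.027, 0.0364 and 0.00977 by edgeR. Ptges3, which encodes a cytosolic prostaglandin E synthase and cochaperone, was lower (-0.47, adjusted p = 0.0461 by edgeR). Cbr3 kept its call whichever single mouse was left out, but not without replicate 2 of both groups (0.57, adjusted p = 0.0686 by edgeR). Tbxas1 lost it without CON replicate 2 or 3 or T + E2 replicate 1 or 2, Ptges3l and Akr1b8 without any mouse but T + E2 replicate 3, and Ptges3 without CON replicate 2 or 3 or T + E2 replicate 1 or 2. In those fits the log2 fold changes were 0.82 to 1.01 for Tbxas1, 0.72 to 0.83 for Ptges3l, 0.47 to 0.65 for Akr1b8 and -0.50 to -0.35 for Ptges3. Tbxas1 and Ptges3 also missed the threshold in both limma fits of FPKM (adjusted p = 0.0577 and 0.064, and 0.0556 and 0.0577), and Ptges3 without the filter (adjusted p = 0.0503 by edgeR). The transcript of Ptges3l is identical to Gm27029 over 551 bases, which had up to 29 counts, and that of Ptges3 to a pseudogene over 480 bases, so reads could be shared. Cbr3 and Ptges3 were named after their values were seen, since the rule took 4 genes per role.

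Enzymes that release arachidonic acid included 2 of 9 tested genes that were higher and 1 that was lower. Pla2g4a, the cytosolic phospholipase A2, had 14.2, 22.5 and 12.8 CPM in CON and 26.1, 34.8 and 30.8 CPM in T + E2, without overlap (log2 fold change 0.89, adjusted p = 0.025 by edgeR). Its relative Pla2g4f rose by 1.32 (adjusted p = 0.022 by edgeR). Pla2g4a missed the threshold without CON replicate 1 or 3 or T + E2 replicate 2 or 3 (0.74 to 0.88), and Pla2g4f without T + E2 replicate 2 or 3 (1.27 and 1.25). Mgll, the monoacylglycerol lipase that frees arachidonic acid from a lipid store, had the highest FPKM of this group and fell 1.90-fold (-0.92, standard error 0.12, adjusted p = 0.00157 by edgeR), under all 14 alternatives.

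In the leukotriene branch 4 of 9 tested enzymes were higher and none was lower. These were Ltc4s, the leukotriene C4 synthase (0.92, adjusted p = 0.0123 by edgeR), and Dpep1, Dpep2 and Ggt5, which trim cysteinyl leukotrienes (0.83, 1.54 and 0.73, adjusted p = 0.00325, 0.0156 and 0.0298 by edgeR). Ltc4s and Dpep1 kept their calls whichever single mouse was left out, and without replicate 2 of both groups Dpep1 kept its call and Ltc4s did not (0.89, adjusted p = 0.109 by edgeR). Ggt5 lost its call without any 1 of the 6 mice (0.63 to 0.81), and Dpep2, with 0.71 ± 0.202 CPM in CON and 2.08 ± 0.512 CPM in T + E2 (SD, n = 3 in each), lost it without CON replicate 1 or 2 or T + E2 replicate 2 (1.42, 1.42 and 1.33) and in limma on log2(FPKM + 1) (adjusted p = 0.0521). The transcript of Dpep2 is identical to Gm45752 over 341 bases, so its reads could be shared. Mgst3, a microsomal glutathione transferase and the highest of this group in FPKM, did not pass (-0.40, adjusted p = 0.114 by edgeR), except without CON replicate 1 (-0.53, adjusted p = 0.038 by edgeR).

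The other lipoxygenases included Aloxe3, known from the skin barrier, which was higher (0.92, adjusted p = 0.0304 by edgeR) and lost its call without CON replicate 2 or 3 or T + E2 replicate 1 or 2 (0.67 to 1.01) and in both limma fits of FPKM (adjusted p = 0.0515 and 0.0509). Alox12, the platelet-type lipoxygenase, was the most highly expressed lipoxygenase at a mean of 8.76 FPKM, against 1.13 FPKM for Alox15 and 0.435 FPKM for Alox5. It had a log2 fold change of -0.04 with a 95% interval of -0.28 to 0.20 (adjusted p = 0.821 by edgeR), and 0.02 without T + E2 replicate 3. Neither of the 2 tested leukotriene and lipoxin receptors passed. The receptor with the highest FPKM, Ltb4r1, which binds leukotriene B4, had 0.797 ± 0.246 and 0.917 ± 0.485 CPM (SD, n = 3 in each).

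**Figure D5:**
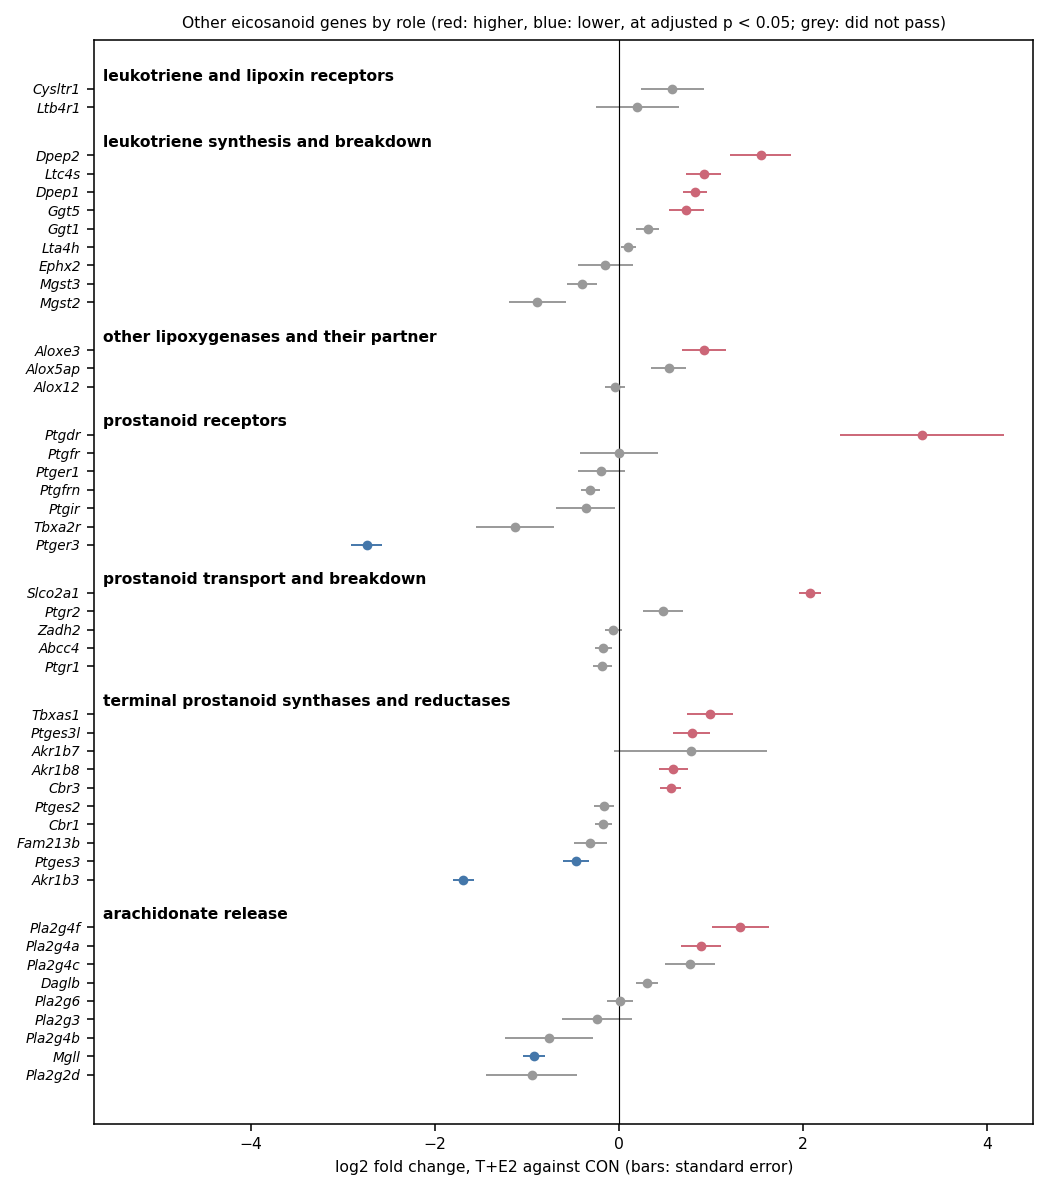
Log2 fold change, T + E2 against CON, of the 45 tested genes of the wider list by role, with standard errors. Genes that passed an adjusted p of 0.05 are red where higher and blue where lower, and grey genes did not pass. Ptger3 and Akr1b3 lie furthest to the left, and Slco2a1 and Ptgdr furthest to the right.

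Markers of several cell types also differed between the groups, to be read beside 10.4% of all tested genes higher, 9.25% lower and 40.7% without overlap. Mast cells, known for prostaglandin D2 and leukotriene C4, are marked by a list of which 5 of 7 genes could be tested. Of these 3 were lower, and the summed level was 28.9 to 42.3 CPM in CON and 15.5 to 24.4 CPM in T + E2. Macrophage markers summed to 180 to 239 CPM against 279 to 443 CPM, and 4 of 7, Mrc1, Cd163, C1qa and C1qb, were higher. The others, Adgre1, Cd68 and Csf1r, overlapped between the groups and did not pass. Their log2 fold changes were 0.31, 0.14 and 0.23 (adjusted p = 0.475, 0.521 and 0.36 by edgeR). Smooth muscle markers, 2 of 6 of which were lower, summed to 4085 to 5074 CPM in CON and 3580 to 3921 CPM in T + E2. The summed levels of these lists did not overlap between the groups. Of single tested genes, 3 of 5 mast cell, 4 of 7 macrophage and 3 of 6 smooth muscle markers did not overlap. No marker in these lists was at or under 3 counts in every mouse. Their part in the changes of Ptgs1, Ptges and Hpgd was not tested.

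Urothelial markers summed to 422 to 642 CPM in CON and 1374 to 1700 CPM in T + E2. The 3 of 4 that were tested were all higher. Upk1a and Upk1b made up nearly all of the sum. Upk2 was low, at 0.629 to 0.92 CPM in CON and 2.7 to 4.99 CPM in T + E2. Upk3a was below the filter, with 0 CPM in CON and 0.346, 6.03 and 0.2 CPM in T + E2. Luminal markers summed to 36904 to 50519 and 12149 to 14959 CPM, with 1 of 7 higher and 3 lower. Schwann cell markers, 2 of 4 of which were lower, summed to 68.4 to 102 and 35.7 to 56.6 CPM. Of the basal markers 1 of 4 was higher, and the list summed to 155 to 257 CPM in CON and 245 to 313 CPM in T + E2. The epididymal markers summed to 0 to 0.854 CPM in CON and 5.24 to 10.9 CPM in T + E2. Of these 1 of 7, Adam7, was higher, with 0 CPM in every CON mouse and 4.93 to 10.9 CPM in T + E2. It was the only one of them tested and made up nearly all of the T + E2 sum. Crisp1 was below the filter, with 0.132, 0.854 and 0 CPM in CON and 0, 0.183 and 0 CPM in T + E2. Another 5 of the 7, Lcn5, Lcn8, Lcn9, Rnase9 and Cst11, were at or under 3 counts in every mouse. The part of these cells in the results was not tested either.

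No marker passed in the other lists. Fibroblast markers summed to 1602 to 1730 CPM in CON and 1675 to 2030 CPM in T + E2, endothelial markers to 79 to 111 and 98.5 to 124 CPM, and B and plasma cell markers to 23.7 to 102 and 77.3 to 154 CPM. T cell markers summed to 3.58 to 10.3 and 4.8 to 8.34 CPM. Neutrophil and eosinophil markers were low at 2.98 to 4.34 and 1.66 to 7.55 CPM, and 2 of the 8, Ly6g and Epx, were at or under 3 counts in every mouse. Adipocyte markers (72.3 to 456 and 37.6 to 119 CPM) and skeletal muscle markers (66.7 to 265 and 83.8 to 190 CPM) were highest in CON replicate 2.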

How the data were processed

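RNA-seq libraries of prostate tissue (TruSeq, paired-end, 1 per mouse) were counted per gene. The deposited table holds whole-number counts without normalization and FPKM values that the authors computed from them per gene length and library depth. TopHat, Bowtie2 and HTSeq are named in the submitters' processing notes. Their versions, the annotation and the use of strand are not given in the sources used here. No genome build is given in these sources either. Of the 34745 gene identifiers 34267 occur in GENCODE M21 (GRCm38), where 9 of the 10 genes have the same start and end. Strands were taken from it.

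The deposited counts were analysed with edgeR 4.0.16 in R 4.3.3. Genes were kept by filterByExpr (minimum count 10), scaled by TMM and compared by the quasi-likelihood test with Benjamini-Hochberg adjustment over 15580 genes. Each SE was derived as the absolute log2 fold change over the square root of the F statistic. The procedure was tested on simulated counts. The alternatives were limma 3.58.1 on log2(FPKM + 1) and log2(FPKM + 0.1) (genes reaching 0.1 FPKM in 3 or more mice), DESeq2 1.42.0, other scaling, no filter, a block for the replicate number, each mouse left out, and, chosen after seeing the data, replicate 2 of both groups left out. Transcripts that could share reads were searched for by BLAST+ 2.17.0+, requiring 90% identity along 300 bases or more.

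The text names the 10 genes, from a wider list by role up to 4 genes that passed and the one of highest mean FPKM, and genes overlapping one of the 10. Cbr3 and Ptges3, and the luminal and other single markers named, stand outside this rule and were chosen after their values were seen. The members and lists were chosen with earlier results of these data known. By chi-square on counts, no mice of the same group agreed within sampling noise. Counting limits cover counting error only.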

Additional observations from a re-analysis of the deposited data

How the results depend on the processing

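Of the 10 genes, 3 passed under every setting except without T + E2 replicate 1, where Ptgs2 and Ptgds passed too, so the number ranged from 3 to 5 with each mouse left out. In the wider list the 17 calls became 8 to 14 with each mouse left out, 6 without replicate 2 of both groups and 6 with the threshold on the fold change. Over all genes the 3061 calls became 1929 to 2741, 1354 and 1191, and the lowest leave-one-out numbers came without CON replicate 3 (1929) and T + E2 replicate 2 (1978). Values that changed sign had not passed the test in any fit. They were those of Ptgis (-0.01 under total-count scaling, -0.13 to 0.18 with each mouse left out), Hpgds (-0.47 to 0.29, and -0.61 without replicate 2 of both groups), Alox12 (-0.11 to 0.02) and Ltb4r1 (-0.31 to 0.45). The cause was not tested.

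With the replicate number as a block, 3 of the 10 genes, 13 of the wider list and 2174 of all genes were called. Ptges3l, Akr1b8, Dpep2 and Ggt5 were not called there (adjusted p = 0.069, 0.0668, 0.0515 and 0.0747 by edgeR). Same-numbered mice are different animals, and the correlations of their deviations from the group means were -0.052, 0.028 and 0.046. No pairing by number was seen in these values, and shared handling of same-numbered samples was not tested. CON replicates 1, 2 and 3 correlated best with T + E2 replicates 2, 3 and 1, but only at 0.132, 0.042 and 0.137. Genes under about 100 reads per mouse, among them Ptgs2, Ptgds, Hpgds, Ptger4, Alox5 and Alox15, had the widest intervals of the 10.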
